A study of Mus musculus with 2 samples.

Results

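Collagen-rich stroma was taken as the 10% of spots with the most fibrillar collagen message in each of 2 sections of B16.F10 melanoma, 1 from a KO host and 1 from a WT host. Among spots with at least 5000 UMIs (unique molecules counted), members were chosen by the summed counts of Col1a1, Col1a2 and Col3a1 per 1000000 UMIs of the spot (CPM), keeping the highest 10% of each section. This gave 506 of 5061 eligible spots, out of 5812 under tissue. They were 239 of 2390 eligible spots in the KO section and 267 of 2671 in the WT section. The other 2151 KO and 2404 WT spots are the remaining tissue. Collagen counts of these same spots chose the members, so every difference between collagen-rich and remaining spots is a description and carries no test.

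B16.F10 is a pigmented mouse melanoma line, and 200000 cells were inoculated per mouse. KO hosts carried Foxp3-Cre with floxed Csnk2b (Foxp3-Cre x CK2b-fl/fl). The genotype label of the WT host reads wild-type, and WT hosts are described as Csnk2bfl/fl, with floxed Csnk2b and no Cre named. Hosts were 8 to 16 weeks old and otherwise untreated, and tumours of similar size were taken on day 15. Sections of 10 µm from fixed, paraffin-embedded tumours were profiled by Visium CytAssist, in which probe pairs ligated on RNA are counted per spot. Foxp3 drives the Cre in regulatory T cells, so the floxed gene, the regulatory subunit of protein kinase CK2, should stay intact in fibroblasts, macrophages and tumour cells. Each genotype is 1 section of 1 tumour. No difference between KO and WT therefore has a replicate check. Intervals given for ratios are exact conditional binomial (Clopper-Pearson) intervals at 95% and cover counting error only. A range over quadrants covers the 3 quadrants of a section with at least 10 collagen-rich spots and shows the spread within that section. A spot covers several cells, and fewer cells of a type cannot be told apart from less RNA per cell.

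Fibrillar collagens I and III are secreted by fibroblasts as procollagens, trimmed, assembled into fibrils and crosslinked, and small proteoglycans and elastic fibre proteins decorate the fibrils. Resting fibroblasts of the fascia and adventitia make Pi16, Clec3b and Dpt, while fibroblasts activated in wounds and tumours make Acta2, Cthrc1, Lrrc15 and Tnc. In mouse tumours collagen bands often border the tumour, follow vessels and hold resident macrophages, and in skin they lie against fat and muscle.

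Sequence before the start of the genes that chose the spots is shown because all members share high levels of them. RefSeq (GRCm38.p6) gave the 250 bases before the annotated start for Col1a2 at chr6:4505368-4505617 (plus strand) and for Col3a1 at chr1:45311288-45311537 (plus strand). CCAAT and TATAAA were searched on both strands and do not overlap each other. Capitals mark matches, with 1 CCAAT beginning 109 bases before the Col1a2 start and 1 TATAAA beginning 117 bases before the Col3a1 start.
Col1a2: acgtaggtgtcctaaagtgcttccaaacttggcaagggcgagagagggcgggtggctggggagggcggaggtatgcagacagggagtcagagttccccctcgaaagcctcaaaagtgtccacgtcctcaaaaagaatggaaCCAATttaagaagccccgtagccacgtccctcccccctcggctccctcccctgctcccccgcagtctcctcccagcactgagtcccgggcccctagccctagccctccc
Col3a1: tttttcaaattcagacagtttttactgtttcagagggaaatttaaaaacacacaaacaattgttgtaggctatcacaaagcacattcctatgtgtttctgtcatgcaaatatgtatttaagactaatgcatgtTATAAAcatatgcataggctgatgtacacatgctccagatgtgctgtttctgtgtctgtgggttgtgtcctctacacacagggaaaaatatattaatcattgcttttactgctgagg
Of 18502 promoter windows of this length for genes on the probe panel, 34.6% held CCAAT and 10.7% held TATAAA, so neither match is rare. Col1a1 lies on chromosome 11, from 94936224 to 94953042 in the same annotation.

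The spots differed widely in collagen between the sections. Summed collagen in collagen-rich spots had a median of 21257.1 CPM (range 9140.5 to 79521.0) in the KO section, against 111024.8 CPM (81872.3 to 264046.6) in the WT section. The lowest members had 9140.5 and 9145.4 CPM in the KO section, where the highest remaining spots had 9048.9 and 9003.0. WT members began at 81872.3 and 82159.6 CPM, and the highest WT remaining spots had 81697.0 and 81637.4. No KO spot (0 of 2390) reached the WT threshold, while 847 WT spots (31.7%) reached the KO threshold. The 3 collagens made 2.15% of UMIs in KO collagen-rich spots and 0.0627% in KO remaining spots. They made 11.9% in WT collagen-rich spots and 0.635% in WT remaining spots. The same share of spots thus marks a collagen level several times lower in the KO than in the WT section.

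Both sets of spots carried fibroblast genes. Pdgfra, the receptor that marks most fibroblasts, had 94.0 CPM in KO collagen-rich spots and 2.97 CPM in KO remaining spots. It had 163 and 10.5 CPM in the same WT spots. A gene is called enriched where its level in collagen-rich spots was 2-fold that of remaining spots or more, and depleted where it was 0.5-fold or less. Of 11 fibroblast markers with at least 200 UMIs in KO tissue 10 were enriched, as were 11 of 12 in WT tissue. Depth went the other way. Median UMIs per spot were 8778 in collagen-rich and 42300 in remaining KO spots, and 15300 and 32590 in the WT section. The rim of the tissue, meaning spots no more than 2 grid steps from empty glass or from the frame,, held 69.9% of collagen-rich and 23.9% of remaining KO spots. In WT tissue the rim held 42.3% of collagen-rich and 42.7% of remaining spots. The part of depth and of rim position in the gene differences was not tested. Results with members recomputed within the rim or within the interior are given for some lists only. Probes for 14 genes of other organs had a median of 1 UMI in the pooled KO collagen-rich spots and 0.5 UMI in the WT ones.

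**Figure D1:**
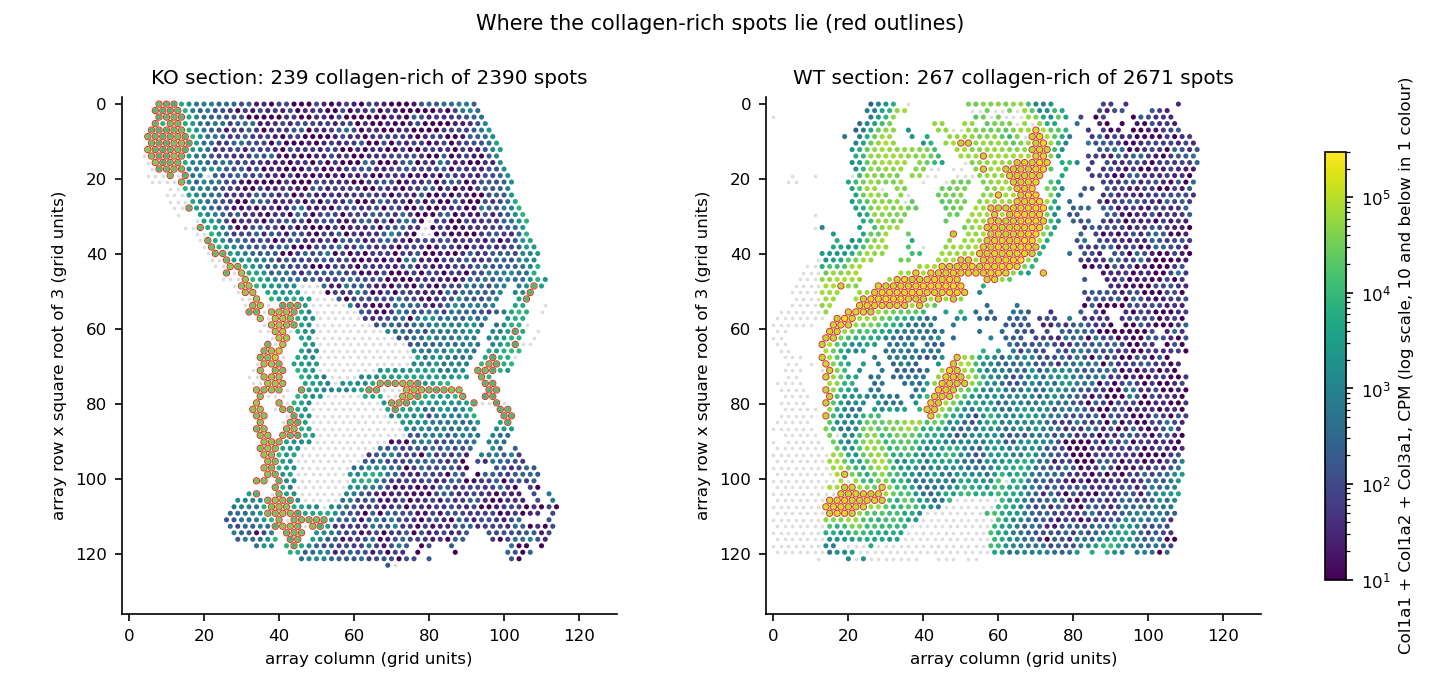
Maps of the KO section (left) and the WT section (right), with axes in units of the array grid. Each point is a spot coloured by summed Col1a1, Col1a2 and Col3a1 CPM on a log scale, red outlines mark the 239 KO and 267 WT collagen-rich spots, and grey points had under 5000 UMIs. KO collagen-rich spots trace thin strips and a corner of the tissue, and WT ones form a broad band with 2 smaller areas.

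Collagen-rich spots formed connected patches. The KO members fell into 13 patches of adjoining spots, of which 5 had at least 10 spots (113, 53, 24, 20 and 19). The WT members fell into 14 patches, of which 3 had at least 10 spots (201, 27 and 22). The largest patch held 47.3% of KO members and 75.3% of WT members, so the WT stroma profile is mostly that of 1 band. A member touched 3.56 other members on average in the KO and 4.40 in the WT section.

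Across all genes with at least 200 UMIs in a section, collagen-rich spots of the KO section had 1639 of 11135 genes (14.7%) enriched and 1130 (10.1%) depleted. WT collagen-rich spots had 1756 of 11274 genes (15.6%) enriched and 3333 (29.6%) depleted. The median log2 ratio over all these genes was -0.23 in the KO and -0.50 in the WT section. Of 10911 genes compared in both sections, 1170 were enriched in both, which is 75.8% of the KO and 80.9% of the WT genes on that side. The 977 genes depleted in both were 88.5% of the KO and 29.5% of the WT genes. Only 50 genes were enriched in KO and depleted in WT collagen-rich spots, and 1 gene was the reverse. The log2 ratios of the sections correlated across genes with Pearson's r of 0.82 and Spearman's rho of 0.79, and genes are not independent replicates. The genes lower in WT collagen-rich spots were thus more numerous than in KO ones, while those higher were largely shared.

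**Figure D2:**
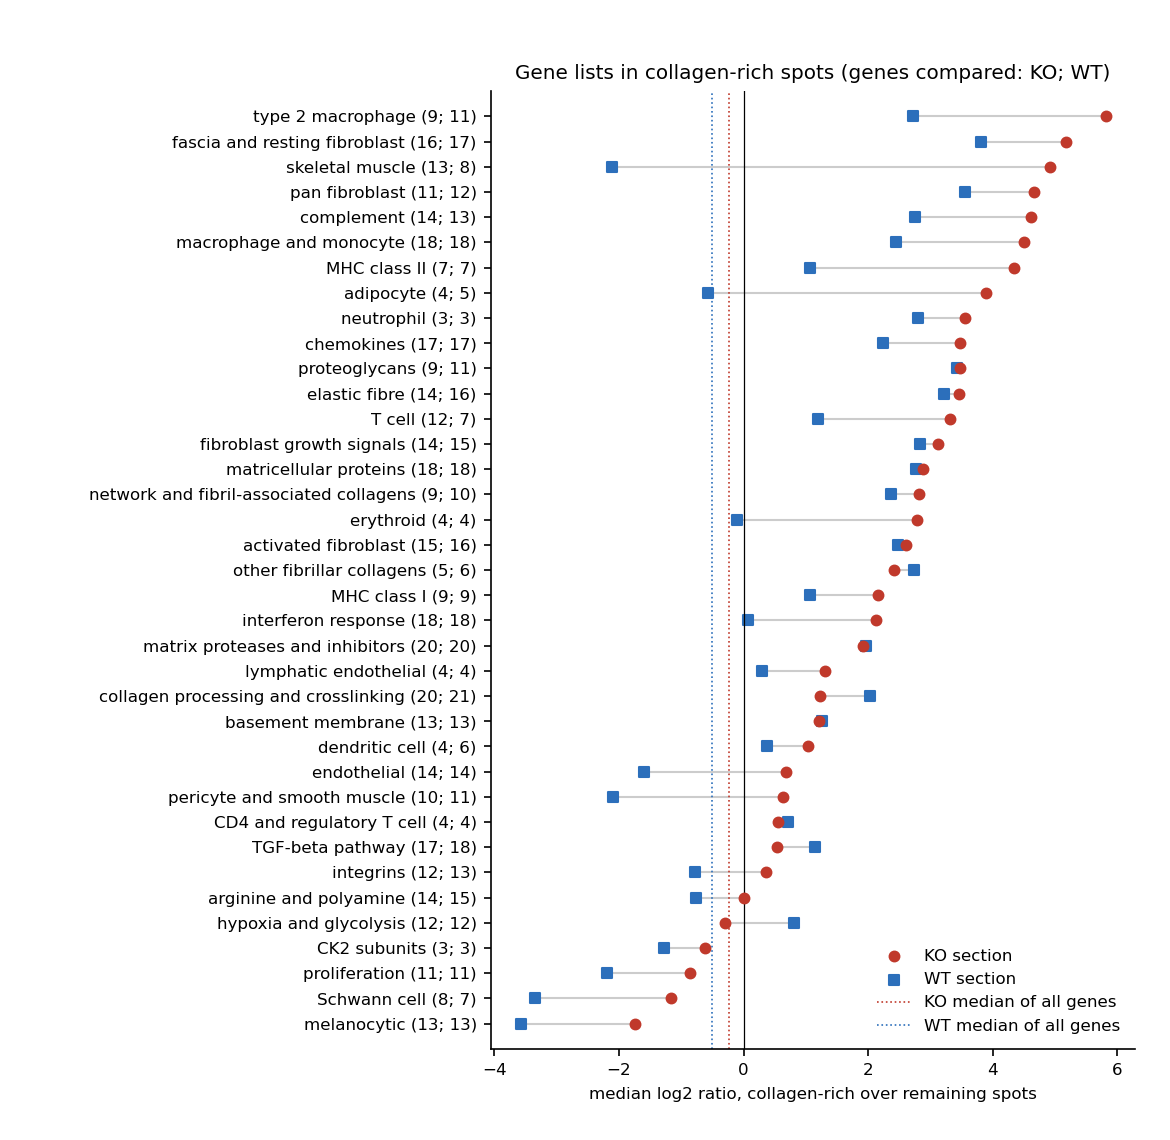
Median log2 ratio of collagen-rich over remaining spots for each gene list with at least 3 genes compared in both sections. Red circles are the KO section, blue squares the WT section, dotted lines the median of all genes (-0.23 KO, -0.50 WT), and brackets give the genes compared. Matrix, fibroblast and macrophage lists lie right of 0 in both sections, while skeletal muscle, adipocyte, endothelial and pericyte lists lie right of 0 in KO and left of 0 in WT tissue.

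Matrix genes beyond the 3 collagens that chose the spots were higher in collagen-rich spots of both sections. Among other fibrillar collagens, 3 of 5 were enriched in the KO section (median log2 2.42), and 4 of 6 were in the WT section (median 2.74), with 2 lower. Col5a1, a collagen V chain that sets fibril diameter, had 420.0 CPM in KO collagen-rich and 23.6 CPM in KO remaining spots. WT values for Col5a1 were 2703 and 216 CPM. Network and fibril-associated collagens had 7 of 9 genes enriched in the KO section (median 2.81) and 8 of 10 in the WT section (median 2.36). Col14a1, which binds fibril surfaces, was 61.2-fold (53.6 to 69.9) higher in KO and 20.2-fold (19.0 to 21.4) higher in WT collagen-rich spots.

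Enzymes and chaperones that modify and crosslink collagen were less sharply divided between stroma and remaining tissue. In the KO section 11 of 20 were enriched (median 1.22), against 19 of 21 in the WT section (median 2.02). Lox, a crosslinking enzyme, had 221 CPM in KO collagen-rich and 7.43 CPM in KO remaining spots, and 1232 and 73.6 CPM in WT spots. Serpinh1, the collagen chaperone, was 1.06-fold of the remaining spots in KO stroma and 2.21-fold in WT stroma. P4hb, which also serves general protein folding, was 0.68-fold and 1.01-fold. The chaperones are therefore abundant outside the stroma in both sections.

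Small proteoglycans were enriched for 8 of 9 genes in KO (median 3.47) and 10 of 11 in WT collagen-rich spots (median 3.42). Dcn, decorin, had 797 CPM in KO collagen-rich and 15.6 CPM in KO remaining spots, and 1077 and 52.8 CPM in WT ones. Elastic fibre genes were enriched for 9 of 14 in KO (median 3.46) and 12 of 16 in WT spots (median 3.22). Fbln5, an elastic fibre fibulin, ran against its list at 0.22-fold in KO and 0.16-fold in WT collagen-rich spots. Matricellular proteins were enriched for 16 of 18 genes in KO (median 2.89) and 17 of 18 in WT spots (median 2.76). Fn1, fibronectin, had 1936 CPM in KO collagen-rich and 101 CPM in KO remaining spots, and 5066 and 365 CPM in WT ones. Matrix proteases and inhibitors followed with 12 of 20 in KO (median 1.92) and 16 of 20 in WT spots (median 1.97), led by level by Mmp2 and Timp2.

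Basement membrane genes, made by vessels, muscle and fibroblasts, divided by chain. Lama2, the laminin chain of muscle and mesenchyme, was 18.2-fold higher in KO and 9.43-fold higher in WT collagen-rich spots. Col4a1, the main chain of vessel basement membranes, was 2.31-fold (2.16 to 2.47) in KO but 0.39-fold (0.35 to 0.44) in WT collagen-rich spots. Its quadrant range in the KO section ran from -0.49 to 2.14 on the log2 scale, so its KO ratio differed in sign between areas.

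The balance of collagen III to collagen I differed between the stroma of the sections. Counts of Col3a1 per count of Col1a1 were 1.64 (1.61 to 1.67) in KO collagen-rich and 0.82 (0.81 to 0.84) in KO remaining spots. In WT tissue the ratio was 0.84 (0.84 to 0.85) in collagen-rich and 0.66 (0.65 to 0.66) in remaining spots. Quadrants ranged from 1.001 to 1.94 in KO collagen-rich spots and from 0.64 to 0.90 in WT ones. Quadrants of 1 section are not replicates. Both genes also took part in choosing the spots, so the ratios are descriptions. Each gene has its own probes, so a ratio near 1 does not mean equal message, and only the difference of ratios between spots can be read.

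Resting-type fibroblast genes were enriched without exception. All 16 compared genes of the fascia and resting fibroblast list were enriched in KO collagen-rich spots (median log2 5.18), and all 17 were in WT ones (median 3.81). Pi16 had 263 CPM in KO collagen-rich and 1.76 CPM in KO remaining spots, and 388 and 14.1 CPM in WT spots. Clec3b, tetranectin, was 159-fold (139 to 182) higher in KO and 23.9-fold (22.8 to 25.2) higher in WT collagen-rich spots. Tnxb, the matricellular tenascin X, was 185-fold (163 to 210) and 22.3-fold (21.2 to 23.4) higher. Dpt, dermatopontin, was 138-fold (122 to 157) and 19.8-fold (18.9 to 20.6) higher, and Efemp1, a fibulin, 164-fold and 14.7-fold. Levels in remaining spots differed as well, with Dpt at 3.41 CPM in KO and 48.7 CPM in WT remaining spots. Of the 847 WT spots at or above the KO collagen threshold, 267 were members, and the others count as remaining tissue. The KO and WT folds over remaining spots thus have unlike baselines.

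Activated fibroblast genes were enriched for 12 of 15 genes in KO (median log2 2.61) and 15 of 16 in WT collagen-rich spots (median 2.49). Cthrc1, a secreted protein of matrix-producing fibroblasts, had 169 CPM in KO collagen-rich and 7.17 CPM in KO remaining spots, and 1922 and 95.8 CPM in WT ones. Acta2, smooth muscle actin, had 47.4 and 16.2 CPM in the KO section, against 443 and 98.8 CPM in the WT section. Adam12, a membrane protease, was 0.93-fold in KO but 3.94-fold in WT collagen-rich spots. Summed counts of the activated list per count of the fascia list were 0.33 (0.32 to 0.34) in KO and 0.88 (0.87 to 0.90) in WT collagen-rich spots. Over quadrants the ratio ran from 0.27 to 0.64 in the KO and from 0.76 to 1.54 in the WT section, without overlap. Patches of adjoining spots did overlap, since the ratio was 0.27, 0.28, 1.22, 0.22 and 0.31 in the 5 KO patches of at least 10 spots, by size, and 0.75, 0.66 and 2.89 in the 3 WT ones. Pooled WT stroma thus carried more activated-type message per resting-type message than pooled KO stroma, but KO patch 3 exceeded WT patches 1 and 2.

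Beside the resting fibroblast and matrix genes Tnxb, Efemp1, Clec3b, Pi16 and Dpt, the 12 highest KO genes included macrophage lectins and secreted defence proteins. Cd209f and Cd209g, C-type lectins of tissue macrophages and near-identical to other family members, were 209-fold (184 to 237) and 203-fold higher in KO collagen-rich spots. Cd209f had 671 CPM there and 3.21 CPM in KO remaining spots, with quadrants from 129 to 1159 CPM, and in WT it had 97.1 and 17.6 CPM. Fcna, a ficolin of macrophages, was 98.8-fold higher in KO and 15.9-fold higher in WT stroma. Cd163, the haemoglobin scavenger receptor, was 114-fold (98.1 to 134) and 8.53-fold (7.55 to 9.63) higher. Ptx3 and Lbp, secreted recognition proteins, were 135-fold and 129-fold higher in KO stroma and 18.3-fold and 40.6-fold higher in WT stroma. Complement factor C6 had 167 CPM in KO collagen-rich and 1.01 CPM in KO remaining spots, but 5 UMIs (1.19 CPM) in all WT collagen-rich spots.

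WT collagen-rich spots were led by secreted and matrix-modifying proteins. Pcsk5, a proprotein convertase, had 263 CPM in WT collagen-rich and 5.61 CPM in WT remaining spots, a 47.0-fold difference (42.1 to 52.4), and 13.7 and 0.638 CPM in the KO section. Saa3, an acute phase apolipoprotein, was 70.5-fold (66.1 to 75.3) higher in KO and 46.6-fold (43.7 to 49.8) higher in WT stroma. Prg4, lubricin, was 76.5-fold and 41.6-fold higher, and Sfrp2, a secreted Wnt modulator, 98.7-fold and 28.6-fold. Cxcl5, a neutrophil-attracting chemokine, was 61.8-fold and 29.9-fold higher, and Lgi2, 64.9-fold and 37.9-fold. Most leaders of the WT stroma were therefore high in KO stroma as well. Zic1, a transcription factor, differed, with 27.8-fold in WT but 3.19-fold in KO stroma, where it had 7 UMIs.

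Macrophage and monocyte genes were enriched for all 18 genes in KO (median log2 4.50) and 17 of 18 in WT collagen-rich spots (median 2.44). Their summed level was 13390 CPM in KO collagen-rich and 1140 CPM in KO remaining spots. In the WT section it was 7075 and 1979 CPM. C1qa, a complement C1q chain of macrophages, had 2938 and 127 CPM in the KO section and 1259 and 239 CPM in the WT section. Type 2 macrophage genes were enriched for 9 of 9 genes in KO (median 5.81) and 9 of 11 in WT spots (median 2.72). Within that list Ccl8, a monocyte chemokine, was 56.2-fold higher in KO (5213 against 92.7 CPM) and 3.03-fold higher in WT stroma (266 against 87.7 CPM). Retnla, a secreted product of alternatively activated macrophages, was 204-fold higher in KO and 1.43-fold in WT stroma. Arg1, arginase, ran the other way, at 11.6-fold (10.5 to 12.8) in KO and 25.9-fold (25.2 to 26.5) in WT stroma. Members of this list therefore did not move as a block between the sections.

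Complement genes were enriched for 13 of 14 genes in KO (median log2 4.61) and 12 of 13 in WT stroma (median 2.75). Chemokines were so for 16 of 17 in KO (median 3.47) and 13 of 17 in WT stroma (median 2.24). Cxcl13, which attracts B cells, had 85.3 CPM in KO collagen-rich and 1.01 CPM in KO remaining spots, but 1 UMI in WT collagen-rich spots. Cxcl10, an interferon-induced chemokine, was 1.47-fold in KO and 0.15-fold in WT stroma. MHC class II genes were enriched for 7 of 7 genes in KO (median 4.35) and 4 of 7 in WT stroma (median 1.06). Cd74, the invariant chain, had 3884 and 178 CPM in the KO section and 510 and 245 CPM in the WT section. MHC class I genes, whose family members are alike in sequence, were enriched for 9 of 9 in KO (median 2.16) and 5 of 9 in WT stroma (median 1.07). Interferon response genes were so for 13 of 18 in KO (median 2.13) and 5 of 18 in WT stroma, where another 5 were depleted (median 0.06). Over all WT genes 15.6% were enriched and 29.6% depleted, so the depleted WT interferon genes were near the share of all genes.

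T cell genes were higher in KO collagen-rich than in KO remaining spots, by an amount that depended on how the spots were chosen. All 12 compared genes were enriched there (median log2 3.32), and in the WT section 6 of 7 were (median 1.20). Their summed level was 745 CPM in KO collagen-rich and 71.5 CPM in KO remaining spots, and 94.0 and 33.8 CPM in WT ones. Cd3e, which carries signals of the T cell receptor, had 79.3 and 7.84 CPM in the KO and 6.43 and 2.58 CPM in the WT section. Cd8a had 38.9 and 5.34 CPM in the KO and 4.05 and 1.44 CPM in the WT section, the WT members holding 17 UMIs in all. Gzmk, a granzyme of memory and effector T cells, was 11.2-fold (8.79 to 14.2) higher in KO stroma. The KO spread was wide, as quadrants ran from 3.63 to 86.3 CPM for Cd8a and from 127 to 1855 CPM for the summed T cell list. Over single KO collagen-rich spots the T cell list had a median of 193 CPM and quartiles of 0 and 697. With members chosen among rim spots alone, the KO T cell median was 0.40 and the Cd8a log2 ratio 0.13, and with spots chosen by Dcn, Lum and Sparc they were 0.86 and 0.52, all under 2-fold. Foxp3 had 1 UMI in KO and 2 UMIs in WT collagen-rich spots, too few for a ratio.

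Vessel genes divided the sections. Of 14 endothelial genes, 3 were enriched and 0 depleted in KO collagen-rich spots (median log2 0.69), while 1 was higher and 12 lower in WT ones (median -1.60). Over all genes 14.7% were enriched and 10.1% depleted in KO stroma, against 15.6% and 29.6% in WT stroma. Summed endothelial level was 683 CPM in KO collagen-rich and 561 CPM in KO remaining spots, against 257 and 754 CPM in the WT section. Plvap, of fenestrated capillaries, was 2.11-fold (1.89 to 2.35) in KO and 0.19-fold (0.16 to 0.24) in WT stroma. Cdh5, the endothelial cadherin, was 1.62-fold and 0.24-fold. Tek, the angiopoietin receptor, was the exception in WT stroma at 5.69-fold, with 9.70-fold in KO stroma. Gja4, a connexin of arteries, had 18 UMIs in KO collagen-rich spots and 0 in WT ones, where it was at least 8.8-fold lower than in remaining spots (bound of 3 counts over the pooled spots). KO values varied by area, with Cdh5 from 1.45 to 188 CPM over quadrants of KO stroma. Pericyte and smooth muscle genes had 3 of 10 higher and 1 lower in KO (median 0.64), and 2 higher and 8 lower of 11 in WT stroma (median -2.10). The summed WT pericyte level ran the other way, at 995 CPM in collagen-rich and 327 CPM in remaining spots, with Ndufa4l2 at 909 and 48.8 CPM.

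Endothelial genes were low in the WT members and not in the spots next to them in collagen. Eligible spots were ordered by collagen and split into 10 equal bins, of which bin 10 holds the members. Bin 8 of WT tissue had 1199 CPM of endothelial genes, bin 9 had 1352 CPM, the most of any WT bin, and bin 10 had 257 CPM. Adipocyte genes had 735 CPM in bin 9 and 114 CPM in bin 10 of WT tissue, and erythroid genes 1828 and 284 CPM. In KO tissue bin 9 had 597 CPM of endothelial genes and bin 10 had 683 CPM. With the 20% of WT spots richest in collagen taken instead, the endothelial median log2 ratio was 0.65 and that of pericytes 0.20, above 0 in both cases. The sign of the vessel difference in WT tissue thus depends on where the collagen threshold is set. In KO tissue the sign also depended on the setting. The KO endothelial median ran from -1.46 to 1.54 over the settings run, and the KO pericyte median from -2.06 to 1.295.

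**Figure D3:**
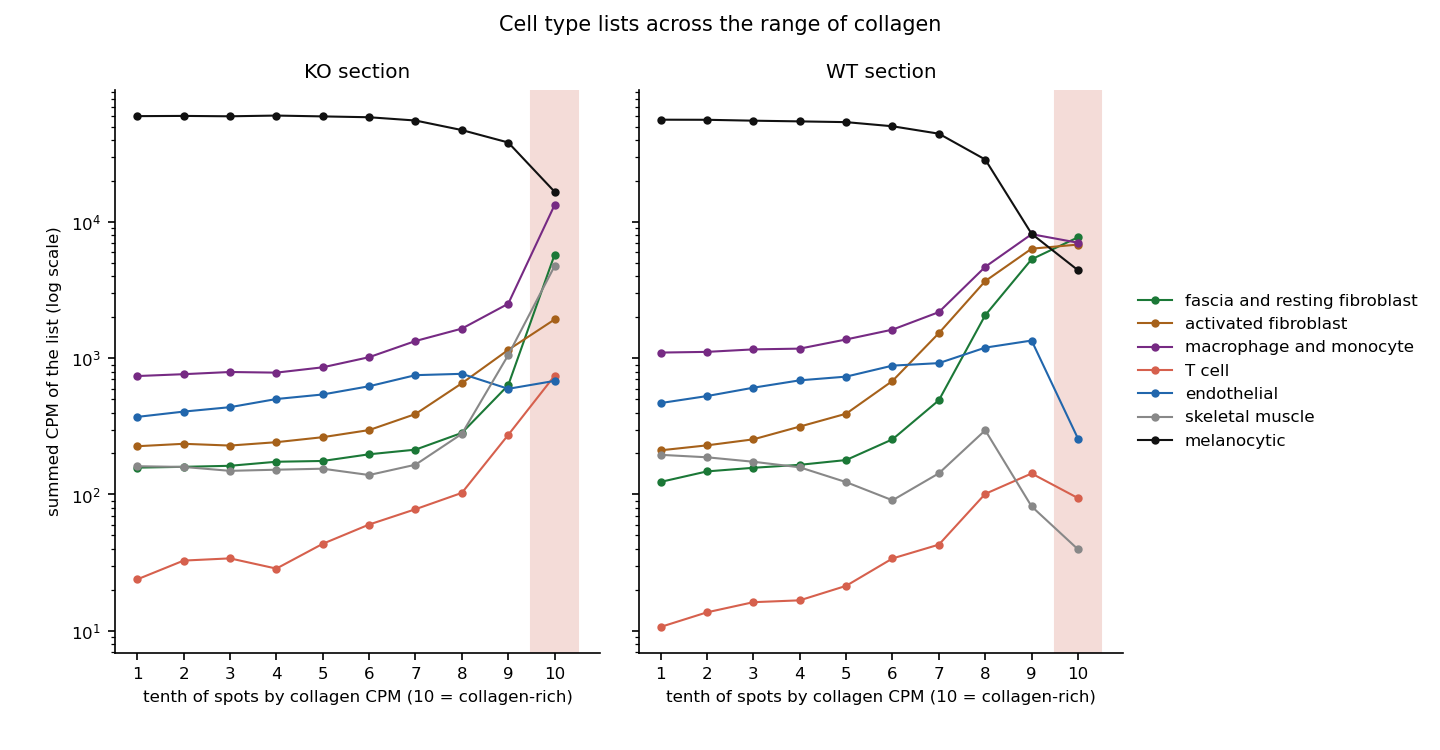
Summed CPM (log scale) of 7 gene lists in 10 bins of spots ordered by collagen CPM, KO section left and WT section right, with the collagen-rich bin shaded. Fascia fibroblast and macrophage lists climb steeply into KO bin 10, and in the WT section endothelial genes peak in bin 9 (1352 CPM) and are at 257 CPM in bin 10.

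Skeletal muscle, fat and blood genes marked KO but not WT collagen-rich spots. In KO stroma 12 of 13 skeletal muscle genes were enriched (median log2 4.92), against 0 of 8 higher and 7 lower in WT stroma (median -2.11). Summed muscle level was 4766 CPM in KO collagen-rich and 250 CPM in KO remaining spots, and 39.5 and 162 CPM in WT ones. Acta1, skeletal actin, had 1127 CPM in KO and 4.52 CPM in WT collagen-rich spots. Adipocyte genes were enriched for 4 of 4 in KO (median 3.90), with 0 higher and 2 lower of 5 in WT stroma (median -0.56). Erythroid genes, whose globin copies are near-identical, were so for 4 of 4 in KO (median 2.78) and 0 of 4 in WT stroma (median -0.11). Of the 120 KO spots richest in muscle genes, 61 were collagen-rich, against 1 of 134 WT spots. For erythroid genes these counts were 60 of 120 and 12 of 134, and for adipocyte genes 60 of 120 and 4 of 134. Most KO members held little muscle, since the median spot had 95.6 CPM and the upper quartile was 770 CPM.

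These values depended on which patches were counted. Without KO patch 2 of the 5 by size, summed muscle level in KO collagen-rich spots was 815 CPM, and adipocyte level was 249 CPM against 662 CPM with it. Without KO patch 1, the muscle level was 8644 CPM, the T cell level 1252 CPM and the endothelial level 1056 CPM. Choosing members among rim spots alone, which left 68 KO spots with at least 27339.6 CPM of collagen, gave a muscle median log2 of -1.21, an erythroid median of -0.26 and a log2 ratio of -1.70 for Acta2. Without the 5% of spots richest in muscle genes, the KO muscle median was -0.10. Over the settings run, the WT adipocyte median ran from -1.95 to 3.11 and the WT erythroid median from -1.06 to 2.23. The part of adjoining muscle, fat and blood in the T cell, MHC class II and endothelial values was not tested.

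Melanocytic genes, which mark the tumour cells, were lower in stroma of both sections. All 13 were below the remaining spots in each section, with 12 depleted in KO (median log2 -1.74) and 13 in WT stroma (median -3.58). Their summed level was 16760 CPM in KO collagen-rich and 56260 CPM in KO remaining spots, and 4442 and 49450 CPM in WT ones. Dct, a melanin enzyme, had 7968 and 29640 CPM in the KO and 2117 and 23870 CPM in the WT section, and Mlana, a melanosome protein, 354 and 588 CPM, and 61.7 and 721 CPM. Proliferation genes were depleted for 4 of 11 in KO (median -0.86) and 11 of 11 in WT stroma (median -2.19). Mki67 was 0.43-fold (0.40 to 0.47) in KO and 0.19-fold (0.17 to 0.21) in WT stroma. KO collagen-rich spots thus held a larger share of tumour message than WT ones.

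The lowest genes of each section had few stromal counts, and Kcnj13 and Azgp1 were among the 12 lowest in both. Kcnj13, a potassium channel, had 34 UMIs (11.9 CPM) in KO collagen-rich and 236 CPM in KO remaining spots, and 26 UMIs (6.19 CPM) and 163 CPM in WT ones. Gsta4, a glutathione transferase, had 46.0 and 831 CPM in the KO and 23.8 and 417 CPM in the WT section. Azgp1 was 0.094-fold and 0.031-fold. Wfdc6a had 0 UMIs in KO collagen-rich spots and was at least 6.44-fold lower there than in remaining spots. Rap1gap, a GTPase regulator, had 0 UMIs in WT collagen-rich spots and was at least 19.9-fold lower, and in KO stroma it was 0.36-fold.

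The targeted gene was read in the same way. Csnk2b had 259 CPM in KO collagen-rich and 396 CPM in KO remaining spots, and 166 and 404 CPM in WT ones, so it was present in both sections. Csnk2a1 and Csnk2a2, the catalytic CK2 subunits, were 0.51-fold and 0.73-fold in KO stroma and 0.38-fold and 0.46-fold in WT stroma. With Cre limited to Foxp3-expressing cells and Foxp3 at 1 and 2 UMIs, these levels do not check the deletion.

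Patches of KO stroma differed from each other more than their collagen did. The 5 KO patches, numbered by size, had 24690, 17740, 20960, 27210 and 13810 CPM of the 3 collagens. Their T cell genes had 130, 1052, 1270, 141 and 2973 CPM in the same order. Patches 2, 3 and 5 were thus high in T cell genes, and patches 1 and 4 low. Endothelial genes followed that split with 231, 1199, 1118, 291 and 1410 CPM. So did erythroid genes with 6488, 24720, 16980, 206 and 28330 CPM. MHC class II genes peaked in patch 5 at 22970 CPM, against 3332 to 8634 CPM in the others. Macrophage genes were 12740 to 16550 CPM in all but patch 3 (6020 CPM), which was also low in fascia fibroblast genes (1751 CPM, against 6008 to 7564 CPM) and lay mostly off the rim (16.7% rim spots).

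Muscle separated the KO patches most. Car3, a muscle and fat carbonic anhydrase, Pvalb, a calcium buffer of fast muscle, and Acta1 had the widest spread between KO patches. Acta1 had 4934 CPM in patch 2 and 1607 CPM in patch 5, and 3, 3 and 0 UMIs in patches 1, 3 and 4. Summed muscle genes had 21860 and 5233 CPM in patches 2 and 5, against 32.9 to 82.9 CPM in the others. T cell genes were therefore high in KO patch 3, which had little muscle message, as well as in the muscle-bearing patches 2 and 5.

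WT patches differed in fibroblast state. Activated fibroblast genes had 6498, 4672 and 10600 CPM in the WT patches by size, and fascia genes 8646, 7050 and 3669 CPM. WT patch 3 was thus the highest in activated and the lowest in fascia genes. Nos2, inducible nitric oxide synthase, Egln3, a hypoxia-induced hydroxylase, and Serpinb2, a protease inhibitor, had the widest spread between WT patches. Nos2 had 304 and 261 CPM in WT patches 1 and 2 and 1 UMI in patch 3, Egln3 171 and 267 CPM and 1 UMI, and Serpinb2 406 and 87.0 CPM and 2 UMIs. T cell genes had 44.1, 358 and 216 CPM in the WT patches, below KO patches 2, 3 and 5.

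**Figure D4:**
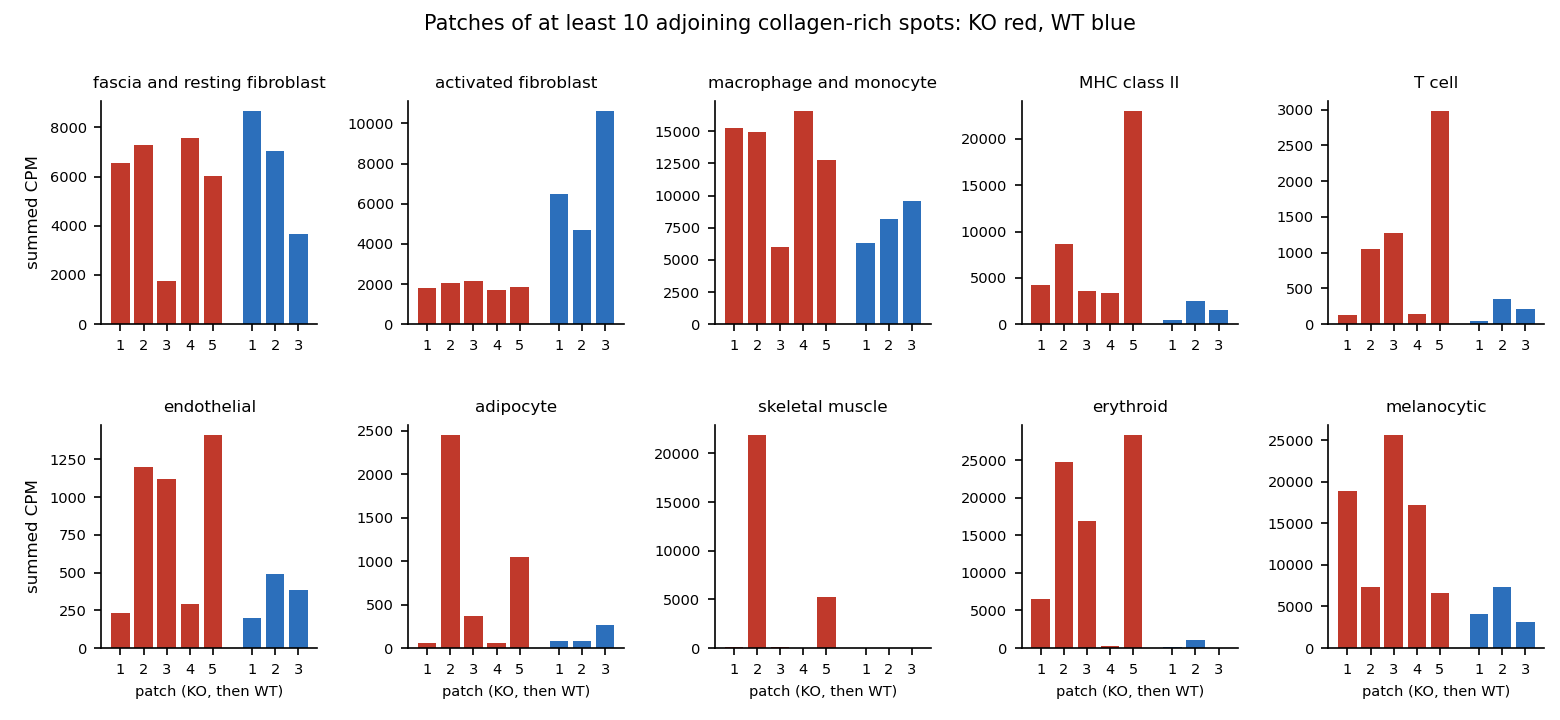
Summed CPM of 10 gene lists in each patch of at least 10 adjoining collagen-rich spots, KO patches (red, 113 to 19 spots) left of WT patches (blue, 201 to 22 spots). Bars start at 0 and each panel has its own scale. Skeletal muscle is found in KO patches 2 and 5, T cell and endothelial genes are high in KO patches 2, 3 and 5, and activated fibroblast genes are higher in every WT patch than in any KO patch.

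Within the KO stroma, spots with more collagen also had more fascia fibroblast and macrophage message. Spearman's rho with collagen over 239 KO member spots was 0.56 for the fascia list, 0.57 for macrophages, 0.12 for activated fibroblasts, -0.42 for T cells and -0.53 for muscle. Fascia and macrophage lists correlated at 0.80, and T cell with erythroid genes at 0.64. Over 267 WT member spots the same lists had rho of -0.003 for fascia, 0.01 for activated fibroblasts, -0.27 for macrophages and -0.13 for T cells. Spots share a section, depth and neighbours and are not replicates, so these values are descriptions. Collagen was bounded below by the choice of members, which narrows its range.

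Distance from the stroma was graded in both sections. Summed collagen in KO tissue was 21510 CPM in members, 4164 CPM 1 grid step away, 2079 CPM at 2 steps and 176 CPM at 9 or more. In WT tissue it was 119100, 49420, 21550 and 1954 CPM. Collagen chose the members, so its drop outside them follows from the choice and is not read as a result. T cell genes in KO tissue had 745 CPM in members, 300 CPM at 1 step, 148 CPM at 2 steps and 38.4 CPM at 9 or more. Fascia fibroblast genes were steeper in KO tissue, with 5778 CPM in members and 690 CPM at 1 step, against 7754 and 3854 CPM in WT tissue. Melanocytic genes reached 37570 CPM at 1 step in KO tissue and 20770 CPM in WT tissue. From members to spots 1 step away, fascia genes thus differed by a larger ratio in KO tissue. Melanocytic genes, at 16760 CPM in KO and 4442 CPM in WT members, differed by a larger ratio in WT tissue. WT spots 1 step away still held 49420 CPM of collagen, above the 21510 CPM of KO members. These ratios therefore compare unlike tissue in the sections, and the part of this in them was not tested.

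Fascia, T cell and endothelial differences had the same sign at the rim and in the interior when the same members were split. Among rim spots the fascia list had 7029 CPM in 167 KO members and 333 CPM in 514 other spots. Among interior spots it had 3690 CPM in 72 KO members and 204 CPM in 1637 others. T cell genes had 780 and 127 CPM at the KO rim and 686 and 56.2 CPM in the KO interior. Endothelial genes had 239 and 748 CPM at the WT rim and 274 and 758 CPM in the WT interior. In KO tissue they had 658 and 636 CPM at the rim, a ratio of only 1.03, and 726 and 540 CPM in the interior.

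Set side by side, KO and WT collagen-rich spots could be compared for 8736 genes with at least 100 UMIs in the members. KO spots were 2-fold or more above WT spots for 1142 genes (13.1%) and 2-fold or more below them for 557 (6.38%), and the median log2 ratio over all genes was 0.31. Scaling by TMM factors, which allow for the large collagen share of the WT spots, shifts every KO over WT log2 ratio by -0.37. Changes between sections smaller than this shift depend on the scaling. Because KO members had less collagen, a further set of 564 WT spots inside the collagen range of the KO members was used, none of them (0) WT members. Those WT spots had 36620 CPM of the 3 collagens when pooled, against 21510 CPM in KO members, so the match is of range and not of mean.

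Skeletal muscle made 11 of the 12 genes with the largest KO over WT ratio, with Hbb-bt, a globin, as the other. Acta1 was 249-fold (159 to 414) higher in KO than WT collagen-rich spots and 15.7-fold higher than in the collagen-range WT spots. Myh4, fast myosin, had 464 CPM in KO stroma and 1 UMI in WT stroma, a ratio of 1948 with a counting interval of 349 to 77010. Among immune lists, the T cell list had 9 of 16 genes with enough UMIs over both sets of members to compare. All 9 were at least 2-fold higher in KO stroma (median log2 3.14). T cell genes summed to 94.0 CPM in WT and 745 CPM in KO stroma, so the UMI minimum favoured genes high in KO stroma. The count and median therefore describe those 9 genes only. The summed level, taken over all 16 genes, was 7.93-fold (7.11 to 8.85) that of WT stroma and 6.75-fold that of the collagen-range WT spots. MHC class II genes were at least 2-fold higher in KO stroma for 7 of 7 (median 2.59), with summed levels 7.16-fold and 3.13-fold. Ccl8 was 19.6-fold (18.5 to 20.9) higher and 13.6-fold, and C3, a complement protein, 4.64-fold and 8.21-fold. These lists and genes kept their direction with either WT set. The T cell median was 0.56 and the MHC class II median 0.18 with spots chosen by Dcn, Lum and Sparc, and the MHC class II median was 0.32 with the top 20% of spots and 0.70 in interior spots. KO patches 1 and 4, with 113 and 20 spots, had 130 and 141 CPM of T cell genes, below the 358 and 216 CPM of WT patches 2 and 3, so the pooled T cell ratio rests on the other KO patches, of which patches 2 and 5 bore muscle.

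Fibroblast and matrix lists of several kinds were lower in KO than in WT stroma. Of 16 activated fibroblast genes, 10 were at least 2-fold lower in KO than WT collagen-rich spots and 0 higher (median log2 -1.50), and of 21 collagen processing genes 15 were lower and 1 higher (median -1.34). Fascia and resting fibroblast genes had a similar share, with 10 of 17 lower and 3 higher (median -1.06), and pan-fibroblast markers had 7 of 12 lower and 0 higher (median -1.08). Against the collagen-range WT spots the medians were -1.03 for activated and -0.53 for collagen processing genes. They were 0.41 for fascia genes and -0.18 for pan-fibroblast markers. Of these lists only the activated one thus stayed past 2-fold, and the fascia list changed sign. Cthrc1 had 169 CPM in KO and 1922 CPM in WT stroma, a ratio of 0.088 (0.080 to 0.096), and 566 CPM in the collagen-range WT spots, a ratio of 0.30. Acta2 had 47.4 and 443 CPM, a ratio of 0.11 (0.089 to 0.13), and 407 CPM in the collagen-range spots, a ratio of 0.12. Lrrc15, a marker of activated tumour fibroblasts, had 23.9 and 282 CPM, and 149 CPM in the collagen-range spots. Arg1 had 195 CPM in KO and 3127 CPM in WT stroma, and 636 CPM in the collagen-range spots, so its ratio was 0.062 (0.057 to 0.068) and 0.31. C1qtnf3, a secreted C1q-like protein, had 3.86 and 134 CPM, and 147 CPM in the collagen-range spots, the lowest ratio at 0.029 and 0.026. Aspn, asporin, had 16.1 and 287 CPM, and 145 CPM in the collagen-range spots.

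Other genes changed side or size once collagen was brought into range. Col1a1 had 6450 CPM in KO and 46560 CPM in WT collagen-rich spots, and 15150 CPM in the collagen-range WT spots, ratios of 0.14 and 0.43. Col3a1 had 10550 and 39250 CPM, and 10490 CPM in the collagen-range spots, ratios of 0.27 and 1.005. The Col3a1 to Col1a1 count ratio was 0.69 (0.69 to 0.70) in the collagen-range WT spots, below the 1.64 of KO stroma. Il33, an alarmin of fibroblasts, had 97.9 and 511 CPM, and 143 CPM in the collagen-range spots, ratios of 0.19 and 0.68. Tnxb, Pi16 and Clec3b, of resting fibroblasts, had ratios of 0.76, 0.68 and 0.58 against WT members and 2.70, 3.02 and 2.32 against the collagen-range spots. The activated to fascia count ratio was 1.48 (1.459 to 1.498) in those WT spots, against 0.33 in KO stroma. Endothelial genes summed to 2.65-fold of WT members but 0.56-fold of the collagen-range WT spots. Melanocytic genes summed to 3.77-fold and 0.71-fold.

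**Figure D5:**
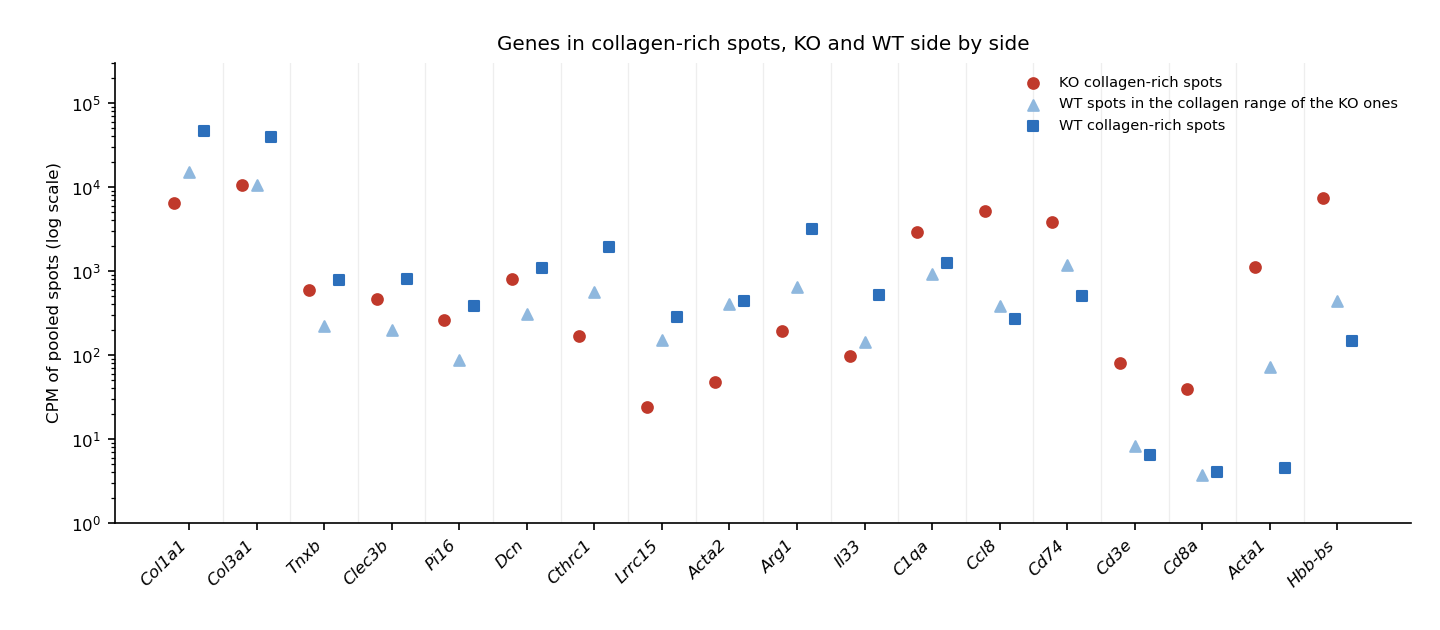
CPM (log scale) of 18 genes in the pooled KO collagen-rich spots (red circles), the WT spots within the collagen range of the KO ones (pale triangles) and the WT collagen-rich spots (blue squares), 1 section per genotype. Cthrc1, Lrrc15, Acta2 and Arg1 are lowest in KO stroma against either WT set, Ccl8, Cd74, Cd3e and Cd8a are highest there, and Tnxb, Clec3b, Pi16 and Dcn lie between the WT sets.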

How the data were processed

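Spatial probe counts were analysed from 1 KO and 1 WT section. UMI counts by gene for every tissue spot were deposited as Space Ranger 2.1.0 output, per the file headers. The submitters' processing notes also name featureCounts and mm10, without a role. The counts are whole numbers and not normalized. Moran's I, a score in the authors' deposited spatial table, was not printed.

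Rows sharing a symbol were summed (19465 to 19454 genes). Of 2746 KO and 3066 WT spots under tissue, 356 KO and 395 WT spots with under 5000 UMIs were left out. UMIs were pooled over spots and scaled to CPM. Log2 ratios have 0.5 added to each count, and genes needed 200 UMIs in a section, or 100 over both sets of members. Pooled depth was 2850182 UMIs in KO and 4200582 in WT collagen-rich spots, and 90895209 and 83966357 in the remaining KO and WT spots. No replicate-based test was possible, so no p-value was computed and spots were not used as replicates. The code was tested on simulated data.

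The members and 42 gene lists (561 genes, 542 on the panel) were chosen with earlier results of these data known. Genes named were, among those with at least 500 UMIs, the 12 highest and 12 lowest per section without the 3 collagens of the rule, the 12 highest and 12 lowest KO over WT (at least 300 UMIs), and of each list 3 by UMI total plus both extremes of the ratio. Also named were Col1a1, Col1a2, Col3a1, Csnk2b, Foxp3, Acta2, Pdgfra, Arg1, Il33, Cd8a, Mlana and the 3 genes with the widest spread between patches. Alternatives changed the share of spots, UMI minimum, scaling (edgeR 4.0.16 TMM in R 4.3.3, or median of ratios), count filter, choosing genes, position, background and neighbouring tissue. Tools were numpy 2.4.6, pandas 2.3.3, scipy 1.17.1 and matplotlib 3.10.9. Xist and Lilrb4a were not analysed.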

Additional observations from a re-analysis of the deposited data

Results flagged for a closer look

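Vessel, fat and muscle lists differed in sign between the sections in the comparison of collagen-rich with remaining spots, and the difference was not tested, since each genotype is 1 section. The pericyte and smooth muscle list had a median log2 ratio of 0.64 in the KO and -2.10 in the WT section, and the endothelial list 0.69 and -1.60. The adipocyte list had 3.90 in the KO and -0.56 in the WT section, and the skeletal muscle list 4.92 and -2.11. These signs did not hold under every setting run. The KO endothelial median ran from -1.46 to 1.54 and the KO pericyte median from -2.06 to 1.295. The WT adipocyte median ran from -1.95 to 3.11. In the KO section the muscle value rests on patches 2 and 5, and in the WT section the endothelial genes were low in the 10% of spots richest in collagen and high in the 10% next to them.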

How the results depend on the processing

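Each genotype is 1 section, so spread between animals is unknown, and depth limits genes with few UMIs in the 2850182 KO and 4200582 WT stromal UMIs. No paired analysis was possible because no group has more than 1 sample. Directions of lists at least 2-fold apart were kept under every setting run for 25 of 29 KO lists, 26 of 28 WT lists and 14 of 24 KO over WT lists, and of named genes for 31 of 32, 32 of 33 and 29 of 31. The cause of the changes was not tested. Settings chosen after seeing the data were the WT spots in the KO collagen range and leaving out patches or blood-rich spots. Without a change of sign, the KO T cell median stayed past 2-fold in 19 of 21 settings (lowest 0.40, in rim spots) and the CD8 list in 19 of 21 (lowest 0.13, in rim spots). KO over WT, the T cell list did so in 21 of 22 (lowest 0.56) and MHC class II genes in 22 of 25 (lowest 0.18), both lowest with Dcn, Lum and Sparc. The KO over WT T cell median covers only genes above the UMI minimum, which favours genes high in KO stroma. Elastic fibre (lowest 0.48), matricellular (0.81) and activated fibroblast medians (0.96) of the KO section stayed past 2-fold in 21 of 22 settings. So did its interferon response (0.60) and MHC class I medians (0.845). Its collagen processing median did so in 16 of 22 settings (lowest 0.815) and its basement membrane median in 12 of 22 (lowest 0.33). The 1639 genes enriched in KO stroma became 3161 with the lower and 719 with the higher count filter, 1066 in rim spots and 949 in interior spots, and the 1756 of WT stroma became 942 with the higher filter. The 1130 genes depleted in KO stroma became 2422 with the top 5% and 284 with the top 20% of spots, 279 with at least 10000 UMIs, 1830 with equal weight per spot, 606 with Dcn, Lum and Sparc choosing spots, 2770 in rim and 312 in interior spots, and 440, 468 and 447 without muscle-rich, fat-rich and blood-rich spots. The 1142 genes higher in KO than WT stroma became 603 with the top 5%, 2050 with the top 20%, 2489 with at least 10000 UMIs, 555 with TMM and 497 with median-of-ratios factors, 1954 with the lower and 296 with the higher filter. They became 1939 with Dcn, Lum and Sparc, 336 in rim and 2583 in interior spots, 1923, 1892 and 1891 without muscle-rich, fat-rich and blood-rich spots, 465 against WT spots in the collagen range and 741 without WT patch 1. The 557 lower genes became 1239 with the top 20%, 1032 with at least 10000 UMIs, 931 with TMM, 1027 with median-of-ratios factors, 268 with the higher filter, 1053 with Dcn, Lum and Sparc, 361 in rim and 971 in interior spots, 340 in the collagen range and 306 without WT patch 1. Lists and genes under 2-fold in the main setting also changed sign and were not counted. Among them, the KO endothelial median ran from -1.46 to 1.54 and the KO pericyte median from -2.06 to 1.295. The WT adipocyte median ran from -1.95 to 3.11 and the WT erythroid median from -1.06 to 2.23. Sign changes given next are only for values at least 2-fold apart in the main setting. KO medians changed sign for lymphatic endothelial genes (-0.66 with at least 10000 UMIs, -0.73 in interior spots, -0.25 without KO patch 1), dendritic cells (-0.069 with Dcn, Lum and Sparc), skeletal muscle (-1.21 in rim spots, -0.10 without muscle-rich spots), erythroid genes (-0.26 in rim spots) and Acta2 (-1.70 in rim spots). WT values changed sign with the top 20% and with 1 threshold for both sections: pericytes 0.20 and 0.077, endothelial genes 0.65 and 0.50, and Gja4 0.90 and 0.66. That threshold left 4 KO spots, so no KO value was run. KO over WT medians changed sign with the top 20% (pericytes -0.40, endothelial genes -0.76, type 2 macrophages -0.68, adipocytes -1.27, MHC class I -0.064), with Dcn, Lum and Sparc (endothelial -1.23, neutrophil -0.24, MHC class I -0.24), with at least 10000 UMIs (type 2 macrophages -0.69), in interior spots (type 2 macrophages -1.23, MHC class I -0.088) and in rim spots (fascia 0.56). In the collagen range they changed sign for fascia (0.41), pericytes (-0.35), endothelial (-0.85), Schwann cell (-0.09), melanocytic (-0.43) and proliferation genes (-0.23), Col3a1 (0.007) and Mlana (-0.07). Each setting applied the UMI minimum anew, so the genes compared could differ from the main setting. Over the genes of the main setting, the collagen-range median was 0.014 for pericytes and 0.039 for Schwann cell genes, so neither changed sign there.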

Other observations

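Most genes of a list of growth factors, cytokines, binding proteins and receptors, with Pdgfra of fibroblasts among them, were enriched in stroma of both sections. Of this list, 12 of 14 genes were enriched in KO (median log2 3.13) and 12 of 15 in WT stroma (median 2.84). Igfbp7, a secreted insulin-like growth factor binding protein, had 668 CPM in KO collagen-rich and 146 CPM in KO remaining spots, and 1300.0 and 359 CPM in WT ones. Igfbp3 was lower, at 0.48-fold in KO and 0.75-fold in WT stroma. In the TGF-beta pathway 6 of 17 genes were enriched in KO (median 0.53) and 10 of 18 in WT stroma (median 1.14). Tgfbr3, betaglycan, was 44.5-fold higher in KO and 16.1-fold in WT stroma, and Tgfbr1, the type I receptor, was 0.62-fold and 0.63-fold. The receptors of this pathway thus did not share a direction in either section.

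Summed levels and medians differed in sign for some lists. Hypoxia genes had a median log2 of -0.29 in KO and 0.82 in WT stroma, while the WT sum was 3650 CPM in collagen-rich and 4654 CPM in remaining spots. Egln3, a hydroxylase induced by low oxygen, was 6.06-fold in KO and 10.6-fold in WT stroma, and Pgk1, a glycolytic enzyme, 0.56-fold and 0.43-fold. Integrins had a median of 0.37 in KO and -0.78 in WT stroma, with a WT sum of 1674 and 1076 CPM, and Itgb2, of leukocytes, at 10.9-fold in KO and 7.56-fold in WT stroma. Arginine and polyamine genes had a median of -0.77 in WT stroma, with 7 of 15 depleted, but summed to 4755 and 2031 CPM, of which Arg1 was 3127 and 121 CPM. The pericyte list in WT stroma summed to 995 and 327 CPM against its median of -2.10, with Ndufa4l2, which low oxygen also induces, at 909 and 48.8 CPM. Dendritic cell genes in KO stroma summed to 395 and 488 CPM against a median of 1.03, and had a median of 0.38 in WT stroma.

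Other cell types were sparsely measured. Neutrophil genes were enriched for 3 of 3 in KO (median 3.56) and 3 of 3 in WT stroma (median 2.79), and S100a8, a calcium-binding protein of neutrophils, had 37.5 and 3.31 CPM in the KO and 16.2 and 2.00 CPM in the WT section. CD8 and cytotoxic genes were enriched for 7 of 7 in KO stroma (median 3.03), while 1 was measured in WT tissue (-0.07). CD4 and regulatory T cell genes had 1 of 4 enriched in KO (median 0.55) and 1 of 4 in WT stroma (median 0.72). Ighm, an antibody heavy chain, had 115 and 1.87 CPM in the KO and 10.9 and 13.4 CPM in the WT section, and the B and plasma cell list had 1 of 2 enriched in KO and 0 of 6 in WT stroma. Lymphatic endothelial genes had a median of 1.31 in KO and 0.30 in WT stroma, over 4 genes in each. Prox1, their defining transcription factor, was lower in both, at 4.56 and 17.3 CPM in the KO and 1.67 and 16.7 CPM in the WT section. Schwann cell genes had 5 of 8 depleted in KO (median -1.17) and 6 of 7 in WT stroma (median -3.35), and several of them, Sox10 among them, are also made by melanoma cells. Keratinocyte and mast cell lists had 1 gene each with enough UMIs, Sfn at a log2 of 0.73 in KO and 0.007 in WT stroma, and Kit at 1.72 and -0.50.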
